A study of Mus musculus with 12 samples.

Results

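Astrocytes are the star-shaped glia of the brain, and they carry no CD11b, the integrin by which microglia are sorted. RNA of 31 genes typical of astrocytes was nevertheless measured in CD11b+ cells sorted from the hippocampus of sham and irradiated mice. The genes were listed by name, out of 18193 genes with 1 symbol on the array. The list was drawn up with earlier results of these data known, so it is not independent of them. Where a gene had several probe sets, the one with the highest mean of all 12 arrays was read. A gene was tested if 3 or more arrays gave this probe set a log2 value above 5, which 30 of the 31 genes and 9120 genes in all did.

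The arrays fall into 4 groups of 3, each array with RNA of 1 mouse: C57BL/6 sham, C57BL/6 irradiated, Balb/c sham and Balb/c irradiated. All mice were females, 6.5 weeks old at treatment and 10.5 weeks old when the cells were taken 1 month later, and no group carries a transgene or deletion in the labels. X-rays were given once, at 10 Gy, to irradiated mice, over a forebrain field 1 cm wide that left out the eyes, nose and cerebellum. From 5000 to 10000 sorted cells per animal were extracted, and their RNA passed through 2 rounds of linear amplification. The comparisons ask whether astrocyte transcripts in this sort differ between irradiated and sham mice, and whether they do so alike in both strains.

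As background, astrocytes take up the glutamate that neurons release and turn it into glutamine. They also buffer potassium and water at their endfeet on blood vessels, and they are coupled to each other by gap junctions. After injury they enlarge and make more of the intermediate filament GFAP. Some of the listed genes are known from other brain cells too. For that reason 10 were set apart as defining (Gfap, Aqp4, Slc1a2, Aldh1l1, Gjb6, Fgfr3, Mlc1, Ntsr2, Cldn10 and Slc4a4), and the other 21 are read as astrocyte genes with other possible sources.

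The sort carried the marks of microglia on every array. The mean log2 value of 16 microglial genes lay between 13.56 and 13.88 on all arrays, and P2ry12, a purine receptor of resting microglia, lay between 13.76 and 14.32. Cdkn1a, a p53-induced inhibitor of cyclin-dependent kinases, was at 7.84 ± 0.47 (mean ± SD, n = 3) in C57BL/6 sham against 12.19 ± 0.15 in C57BL/6 irradiated arrays. It was at 9.46 ± 0.15 in Balb/c sham against 12.57 ± 0.16 in Balb/c irradiated arrays. The arrays differed in RNA quality: the 3' probe sets of Actb and Gapdh exceeded their 5' probe sets by 3.50 to 3.81 on all arrays but Balb/c irradiated replicates 2 and 3, at 4.82 and 4.21. The 18S ribosomal RNA control signal was 11.93 to 12.32 on sham arrays and 10.48 to 11.77 on irradiated arrays, without overlap. With either value as a covariate the counts of calls fell, as given below.

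Most of the astrocyte genes were higher after irradiation in the average over the strains, while few passed within a strain. In the average of the 2 within-strain differences 19 of 30 tested genes were called higher and 0 lower, where 7.72% of all tested genes were called higher, 8.15% lower and 15.9% in either direction (limma, Benjamini-Hochberg adjusted p under 0.05 over 9120 genes). Gfap (2.43-fold), Fgfr3 (2.2-fold), Acsl6 (2.51-fold), Gjb6 (2.21-fold) and Aqp4 (2.11-fold) rose by more than 1 on the log2 scale, and the median over the 30 genes was 0.79. Glul, the glutamine synthetase gene, was the 1 gene of the 30 below 0. In sorted bulk RNA, a larger number of cells of a type and more RNA per cell cannot be told apart.

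The count was also taken over genes that no filter could favour. Of the 31 genes, 28 lay above 5 on all 12 arrays, and among these 18 were called higher, 0 lower, with a median of 0.80. Over the 8084 genes above 5 on all arrays, 6.75% were called higher and the median was -0.05. The other 3 genes were Aldh1l1, above 5 on 8 arrays, Sox9, above 5 on 4 arrays, and Mt3, above 5 on none. Sox9 passed the filter through irradiated arrays alone, and a gene that passes through 1 treatment alone had to differ.

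**Figure D1:**
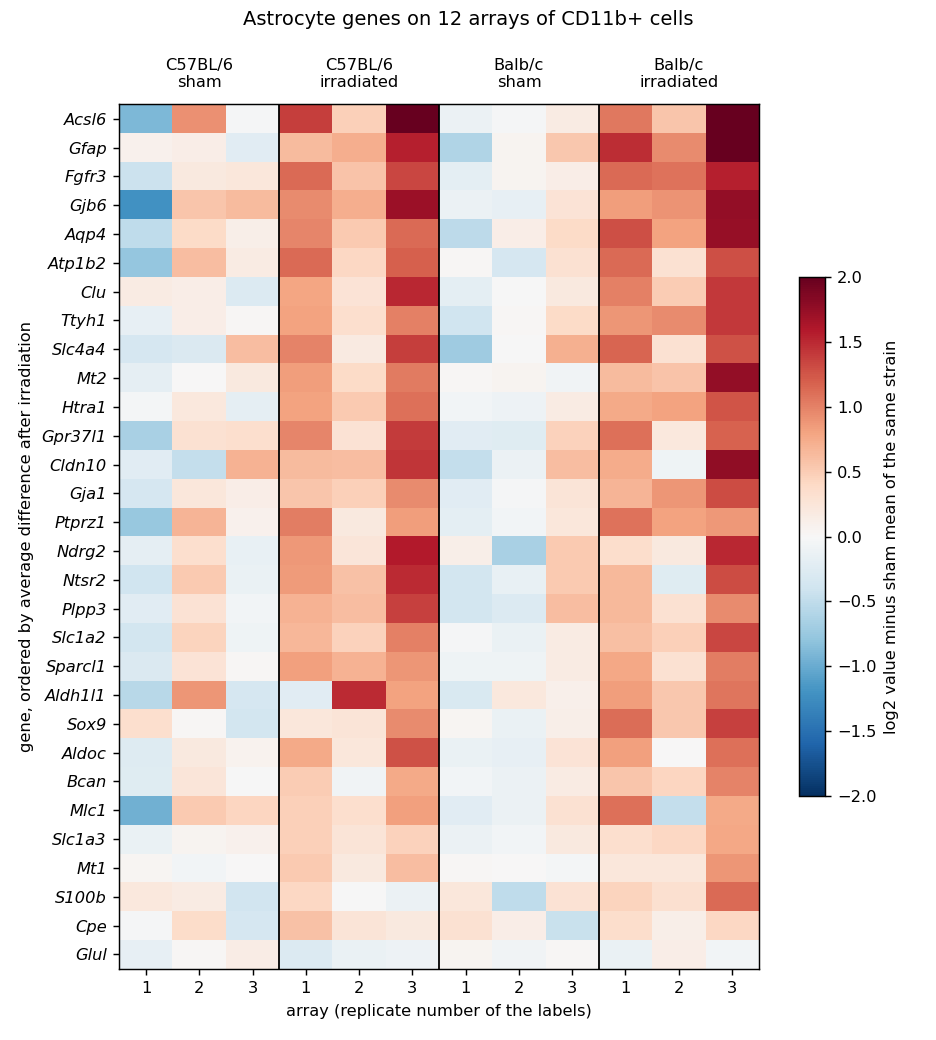
Log2 value of each of the 30 tested astrocyte genes (rows, ordered by the average difference) on each of the 12 arrays (columns, by group and replicate), minus the mean of the 3 sham arrays of the same strain. Red cells fill the irradiated columns of both strains for most genes, and replicate 3 of either irradiated group is the darkest for most genes.

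The intermediate filament gene Gfap was low in C57BL/6 sham arrays, at 6.77, 6.82 and 6.47, while the irradiated arrays of this strain stood at 7.33, 7.41 and 8.24. In Balb/c it was at 6.67, 7.33 and 7.81 in sham and 8.75, 8.22 and 9.60 in irradiated arrays. No irradiated array overlapped the sham arrays of its strain, and Balb/c irradiated replicate 3 was the highest of all. Gfap rose by 1.28 ± 0.27 on average (log2 ± SE, adjusted p = 0.0109) and by 1.59 ± 0.38 in Balb/c (adjusted p = 0.036). In C57BL/6 its difference was 0.97 ± 0.38 and did not pass (adjusted p = 0.172). S100b, which encodes a calcium-binding protein, did not pass in any comparison, at 0.37 ± 0.20 on average, and its arrays overlapped in C57BL/6. The Gfap values come from 1 probe set, whose name marks probes shared between transcripts. The other 2 probe sets of Gfap were above 5 on no array, with group means of at most 2.37, and gave averages of 0.00 and 0.07.

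Among channels, pumps and junction proteins, 5 of 7 genes were called higher on average and the median was 0.90. Aqp4, the water channel of the endfeet, was at 8.91, 9.81 and 9.54 in sham and 10.39, 9.95 and 10.55 in irradiated arrays of C57BL/6. Its Balb/c values were 8.89, 9.56 and 9.81 in sham and 10.71, 10.23 and 11.16 in irradiated arrays. Irradiated and sham arrays of Aqp4 did not overlap in either strain, and the gene rose by 1.08 ± 0.22 on average (adjusted p = 0.0103) and by 1.28 ± 0.32 in Balb/c (adjusted p = 0.0394), while C57BL/6 gave 0.87 ± 0.32 (adjusted p = 0.147). The other 2 probe sets of Aqp4 were above 5 on no array, with group means of at most 2.26.

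Gja1 and Gjb6 encode the gap junction proteins connexin 43 and connexin 30 and were both separated between sham and irradiated arrays in each strain. Gja1 was at 13.14 ± 0.30 in sham and 13.80 ± 0.25 in irradiated arrays of C57BL/6, and 13.20 ± 0.24 in sham and 14.16 ± 0.32 in irradiated arrays of Balb/c. It rose by 0.80 ± 0.15 on average (adjusted p = 0.00669), and 3 further probe sets of Gja1 above 5 on all arrays gave averages of 0.78, 0.97 and 1.03. Gjb6 rose by 1.14 ± 0.33 (adjusted p = 0.0389). Its C57BL/6 sham arrays were uneven, with replicate 1 at 5.65 and replicate 2 at 7.42.

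Ttyh1, which encodes a chloride channel-like membrane protein, was at 8.76, 9.07 and 8.96 in sham and 9.74, 9.26 and 9.93 in irradiated arrays of C57BL/6, and at 8.93, 9.36 and 9.71 in sham and 10.22, 10.28 and 10.74 in irradiated arrays of Balb/c. Irradiated arrays were higher without overlap in each strain, and Ttyh1 rose by 0.90 ± 0.16 on average (adjusted p = 0.0059) and by 1.08 ± 0.23 in Balb/c (adjusted p = 0.0223). Atp1b2, a beta subunit of the sodium-potassium pump, rose by 0.91 ± 0.26 (adjusted p = 0.0407). Slc4a4, the sodium bicarbonate cotransporter, and Mlc1, a membrane protein of the endfeet, did not pass, at 0.88 ± 0.31 and 0.50 ± 0.31, and their irradiated and sham arrays overlapped in both strains.

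The glutamate genes differed from each other. Slc1a2 (GLT-1), the main glutamate transporter of adult astrocytes, was at 10.31, 11.11 and 10.59 in sham and 11.33, 11.13 and 11.67 in irradiated arrays of C57BL/6, and at 10.84, 10.73 and 11.04 in sham and 11.47, 11.34 and 12.20 in irradiated arrays of Balb/c. It rose by 0.75 ± 0.18 on average (adjusted p = 0.0195). Sham and irradiated arrays did not overlap in either strain, but the call was lost with the mean of all its probe sets and with its most variable one. Slc1a3 (GLAST), the other glial transporter, rose by 0.45 ± 0.10 (adjusted p = 0.0148), and its call was lost under the same settings.

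Glul, which turns glutamate into glutamine and which microglia can make too, was at 13.51, 13.71 and 13.83 in sham and 13.41, 13.55 and 13.58 in irradiated arrays of C57BL/6, and at 13.78, 13.66 and 13.76 in sham and 13.59, 13.86 and 13.68 in irradiated arrays of Balb/c. The groups overlapped in both strains, and the average difference was -0.09 ± 0.08 (adjusted p = 0.468).

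Of the secreted and matrix genes, 4 of 5 were called higher on average, with a median of 0.75. Htra1, a secreted serine protease, was at 11.16, 11.41 and 11.02 in sham and 12.00, 11.72 and 12.30 in irradiated arrays of C57BL/6. In Balb/c it was at 11.13, 11.08 and 11.35 in sham and 11.94, 11.98 and 12.43 in irradiated arrays. Every irradiated array lay above every sham array, of either strain. Htra1 rose by 0.81 ± 0.18 in C57BL/6 (adjusted p = 0.0398), by 0.93 ± 0.18 in Balb/c (adjusted p = 0.0153) and by 0.87 ± 0.13 on average (adjusted p = 0.00194), and its other probe set gave 0.92 on average.

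Sparcl1 (hevin), a matrix protein that acts on synapse formation, was at 11.05, 11.61 and 11.37 in sham and 12.16, 12.04 and 12.23 in irradiated arrays of C57BL/6, and at 11.77, 11.77 and 12.02 in sham and 12.62, 12.16 and 12.88 in irradiated arrays of Balb/c. It rose by 0.80 ± 0.19 in C57BL/6 (adjusted p = 0.0465) and by 0.75 ± 0.14 on average (adjusted p = 0.0056). In Balb/c the arrays were also separated, and the difference of 0.70 ± 0.19 did not pass (adjusted p = 0.0559). Clu, the chaperone clusterin, rose by 0.91 ± 0.21 on average (adjusted p = 0.018), and its 4 probe sets gave averages from 0.91 to 1.10. Bcan (brevican), a proteoglycan also made by oligodendrocyte progenitors, rose by 0.53 ± 0.16 (adjusted p = 0.0435), with overlapping arrays in C57BL/6. The other probe set of Bcan, above 5 on all arrays, gave 0.34 on average and 0.16 in C57BL/6. The Bcan call was lost with the mean of all its probe sets and without 9 of the 12 arrays in turn. Cpe, the neuropeptide-processing carboxypeptidase E, did not pass, at 0.32 ± 0.16 with overlapping arrays.

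Fgfr3, a fibroblast growth factor receptor of the astrocyte lineage, was at 7.56, 8.18 and 8.21 in sham and 9.13, 8.56 and 9.32 in irradiated arrays of C57BL/6. In Balb/c it was at 7.94, 8.19 and 8.26 in sham and 9.26, 9.22 and 9.69 in irradiated arrays. All 6 irradiated arrays lay above all 6 sham arrays. Fgfr3 rose by 1.02 ± 0.23 in C57BL/6 (adjusted p = 0.0416), by 1.26 ± 0.23 in Balb/c (adjusted p = 0.0125) and by 1.14 ± 0.17 on average (adjusted p = 0.00178). The other probe set of Fgfr3 was above 5 on no array, with a mean of 2.23 in each group. The C57BL/6 call of Fgfr3 was lost with the mean of all its probe sets. Fgfr3 and Htra1 were the 2 genes of the list called in both strains.

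Of the other receptors and junction proteins, Ptprz1, a receptor phosphatase shared with oligodendrocyte progenitors, rose by 0.80 ± 0.23 on average (adjusted p = 0.0376). Sox9, a transcription factor of astrocytes and neural stem cells, was called higher by 0.74 ± 0.18 (adjusted p = 0.0225) near the filter level, with a highest value of 5.82. It passed the filter through irradiated arrays alone, so its call is no evidence of a rise. Ntsr2, a neurotensin receptor, Gpr37l1, an orphan receptor, and Cldn10, a claudin, did not pass, at 0.77 ± 0.29, 0.86 ± 0.27 and 0.85 ± 0.34. Gpr37l1 was just beyond the threshold (adjusted p = 0.0511).

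Among the metabolic enzymes, a group that also holds Ndrg2, 2 of 5 genes were called higher on average, with a median of 0.76. Acsl6, a fatty acid activating enzyme, was at 6.08, 7.89 and 6.96 in sham and 8.37, 7.45 and 9.29 in irradiated arrays of C57BL/6, and at 7.06, 7.15 and 7.35 in sham and 8.23, 7.73 and 9.36 in irradiated arrays of Balb/c. Its average rise of 1.33 ± 0.39 was the largest of the 30 (adjusted p = 0.042), but sham and irradiated arrays overlapped in C57BL/6. Plpp3, a lipid phosphate phosphatase, rose by 0.76 ± 0.21 (adjusted p = 0.0315). Aldoc, an aldolase of glycolysis, Ndrg2, and Aldh1l1, a folate enzyme widely used as an astrocyte marker, did not pass, at 0.70 ± 0.22 (adjusted p = 0.0533), 0.78 ± 0.30 and 0.75 ± 0.31.

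Metallothioneins are small cysteine-rich proteins that bind zinc and copper. Mt1, Mt2 and Mt3 lie next to each other on chromosome 8, with 18470 bases between the end of Mt3 and the start of Mt2. Mt2 was at 10.01, 10.20 and 10.38 in sham and 11.02, 10.58 and 11.23 in irradiated arrays of C57BL/6, and at 10.15, 10.18 and 10.06 in sham and 10.77, 10.70 and 11.88 in irradiated arrays of Balb/c. All irradiated arrays lay above all sham arrays, of either strain, and Mt2 rose by 0.87 ± 0.20 on average (adjusted p = 0.0162). Mt1 rose by 0.44 ± 0.12 (adjusted p = 0.0362) on a probe set whose name marks probes shared between transcripts, and its other probe set, above 5 on all arrays, gave an average of -0.24, so the direction of Mt1 depends on the probe set. Mt3, a metallothionein typical of brain, lay between 4.38 and 4.63 on all arrays and was not tested.

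The sequences before the start sites of Mt2 and Mt3, neighbours of which 1 rose and 1 did not pass the filter, are shown for the core of the metal response element, which the zinc-sensing factor MTF1 binds and which marks inducible metallothionein genes. The core was searched as TGCACNC or TGCGCNC on both strands, each start position counted once, in the 250 bases before the start site (RefSeq, GRCm38.p6, plus strand for both genes), and matches are in capitals.
Mt2 promoter, chr8:94172368-94172617: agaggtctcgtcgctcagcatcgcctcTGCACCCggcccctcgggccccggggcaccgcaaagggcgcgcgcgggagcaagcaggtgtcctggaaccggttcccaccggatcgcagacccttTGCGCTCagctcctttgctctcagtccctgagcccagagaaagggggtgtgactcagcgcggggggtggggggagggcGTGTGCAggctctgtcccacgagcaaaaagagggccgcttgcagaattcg
Mt3 promoter, chr8:94152357-94152606: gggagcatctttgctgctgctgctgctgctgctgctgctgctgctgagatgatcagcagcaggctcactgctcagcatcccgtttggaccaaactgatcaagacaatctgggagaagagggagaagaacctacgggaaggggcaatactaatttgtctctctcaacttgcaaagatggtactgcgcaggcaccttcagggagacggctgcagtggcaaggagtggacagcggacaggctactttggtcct
Mt2 held 3 matches and Mt3 held 0. The window of Mt1, the third neighbour, which was called higher on the probe set used, held 1. That window lies partly inside the RefSeq span of Mt1, so its count cannot be set beside those of Mt2 and Mt3. At least 3 matches were present in 1.26% of the 32851 promoter windows of this length in the table. Over the astrocyte genes, of which 25 had a window, 6 of 33 windows held a match (18.2%), against 21.4% of all windows. Of 7 tested genes of metal handling, Slc30a1, a zinc exporter, was the 1 called, higher by 0.46 ± 0.11 on average (adjusted p = 0.0167), and none was called lower. That is 14.3% of the list, near the 15.9% of all tested genes called in either direction. The median of that list was 0.12.

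Within the strains fewer genes passed. In C57BL/6, 3 of 30 genes were called higher and 0 lower, where 2.21% of all tested genes were called higher, 1.46% lower and 3.67% in either direction, and the median was 0.78. In Balb/c, 7 of 30 were called higher and 0 lower (Gfap, Aqp4, Gja1, Htra1, Fgfr3, Sox9 and Ttyh1), where 3.26% were called higher, 2.89% lower and 6.15% in either direction, and the median was 0.82. Sox9 passed the filter through irradiated arrays alone. Of the 28 genes above 5 on all arrays, 6 were called higher in Balb/c, against 2.89% of all genes above 5 on all arrays. In each strain 29 of 30 differences lay above 0. All 3 irradiated arrays lay above all 3 sham arrays for 16 genes in C57BL/6, for 20 in Balb/c and for 13 in both, and the same held for 11.4%, 12.8% and 4.70% of all tested genes.

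**Figure D2:**
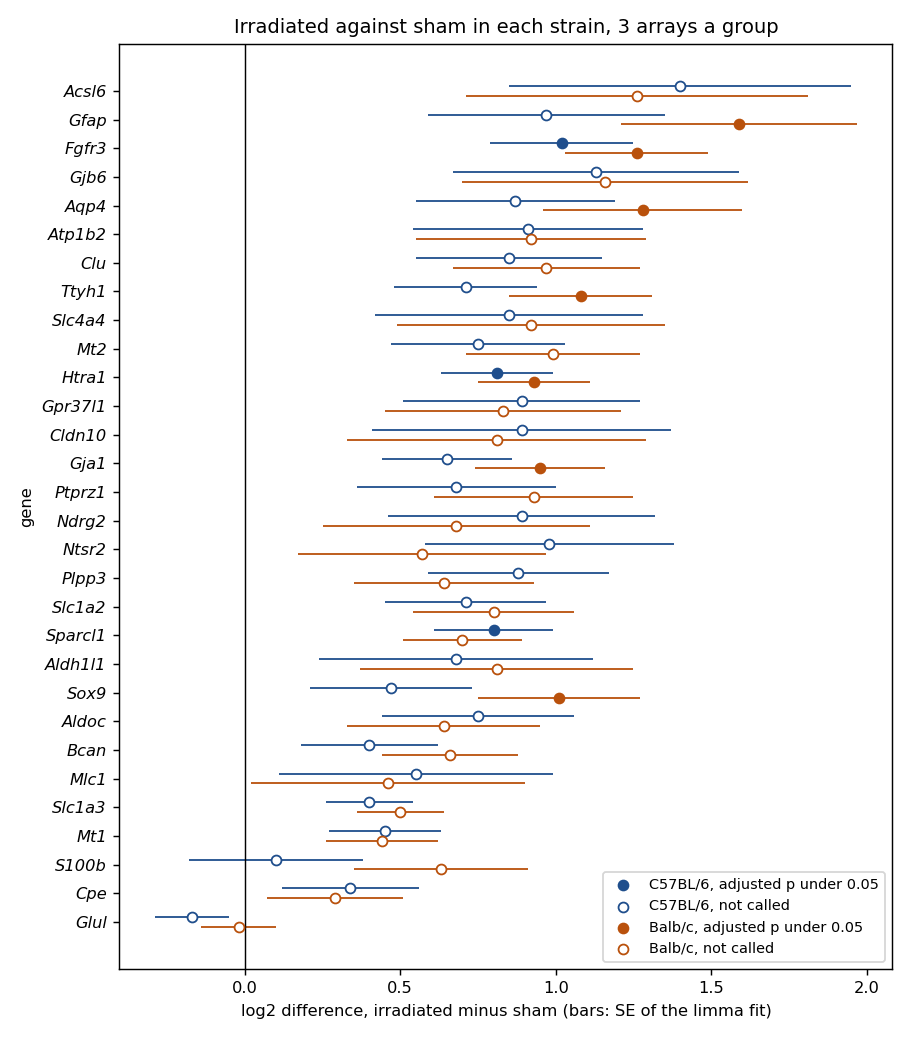
Log2 difference between irradiated and sham arrays (horizontal axis, bars are the SE) of each of the 30 tested astrocyte genes (vertical axis) in C57BL/6 (blue) and Balb/c (orange), filled where adjusted p was under 0.05. Of the C57BL/6 values 3 are filled and of the Balb/c values 7, 29 of 30 lie above 0 in each strain, and the bars of the strains overlap for most genes.

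The within-strain calls rested on few arrays. Each of the 3 calls in C57BL/6 was lost without 8 to 10 of the 12 arrays in turn, and adjusted p reached 0.155 when C57BL/6 irradiated replicate 3 was left out. Each of the 7 calls in Balb/c was lost without 1 to 8 arrays in turn, with adjusted p up to 0.145, for Sox9 without Balb/c irradiated replicate 3. Of the 19 average calls, 11 held without any 1 array: Gfap, Aqp4, Gja1, Slc1a2, Slc1a3, Sparcl1, Mt2, Htra1, Clu, Fgfr3 and Ttyh1. The average count was 12 without C57BL/6 irradiated replicate 3, 12 without Balb/c irradiated replicate 3, 12 without Balb/c sham replicate 1 and 11 without Balb/c sham replicate 2. The share of all genes called fell as well, from 15.9% to 10.1%, 11.4%, 10.7% and 10.1% in these fits. Replicate 3 of C57BL/6 irradiated and replicate 2 of Balb/c irradiated arrays were known from earlier work on these data to stand apart. Their array weights in limma were 0.68 and 0.66, and the lowest weight was 0.50, of C57BL/6 sham replicate 1. Without the first pair the average count was 13, with 8.64% of all genes called in either direction. The counts within strains were then 0 in C57BL/6 and 8 in Balb/c, where 1.14% and 3.96% of all genes were called.

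With the 3' minus 5' difference as a covariate 12 of 30 genes were called on average, 1 in C57BL/6 and 0 in Balb/c, while the medians of those fits were 0.88, 0.77 and 1.04. The same covariate lowered the share of all genes called on average from 15.9% to 9.57%. Within the strains 3.08% of all genes were called in C57BL/6 and 1.14% in Balb/c. With the 18S signal as a covariate 4 genes were called on average, 1 in C57BL/6 and 0 in Balb/c. Of all genes 2.64% were called on average, 2.92% in C57BL/6 and 0.428% in Balb/c. The medians of the astrocyte genes were then 1.18, 1.06 and 1.43. With no filter on dim probe sets 8 of 31 genes were called on average and 0 in either strain, where 4.77% of all genes were called on average, 0.852% in C57BL/6 and 1.56% in Balb/c.

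No astrocyte gene passed the test for a different change in the 2 strains. In the interaction, which subtracts the C57BL/6 difference from the Balb/c difference, 0 of 30 genes were called by limma (adjusted p from 0.722 to 0.997), 0 had an unadjusted p under 0.05, and 0.0768% of all genes were called, 0.0439% higher and 0.0329% lower. The SEs of 0.17 to 0.78 limit what this comparison could detect. Gfap had an interaction of 0.61 ± 0.54 and Aqp4 of 0.41 ± 0.45.

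No astrocyte gene passed between the strains at either treatment in the fit without a replicate block. Between Balb/c and C57BL/6 sham mice 0 of 30 genes were called by limma and 4 had an unadjusted p under 0.05, where 10.5% of all genes were called, 5.22% higher and 5.24% lower, and the median was 0.17. Plpp3 was closest, higher in Balb/c by 0.85 ± 0.29 (adjusted p = 0.103). Between irradiated mice of the strains 0 of 30 were called and 4 had an unadjusted p under 0.05, where 8.97% of all genes were called, 4.38% higher and 4.59% lower, and the median was 0.26. There Ttyh1 was at 0.77 ± 0.23 (adjusted p = 0.066), Ptprz1 at 1.03 ± 0.32 (adjusted p = 0.0784) and Gfap at 1.20 ± 0.38 (adjusted p = 0.0811). With the replicate number as a block 2 of 30 genes were called higher in irradiated Balb/c mice, Ttyh1 (adjusted p = 0.0337) and Gfap (adjusted p = 0.0464), with the same differences. In that fit 8.7% of all genes were called in either direction, so the count is not read as a result about the list.

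**Figure D3:**
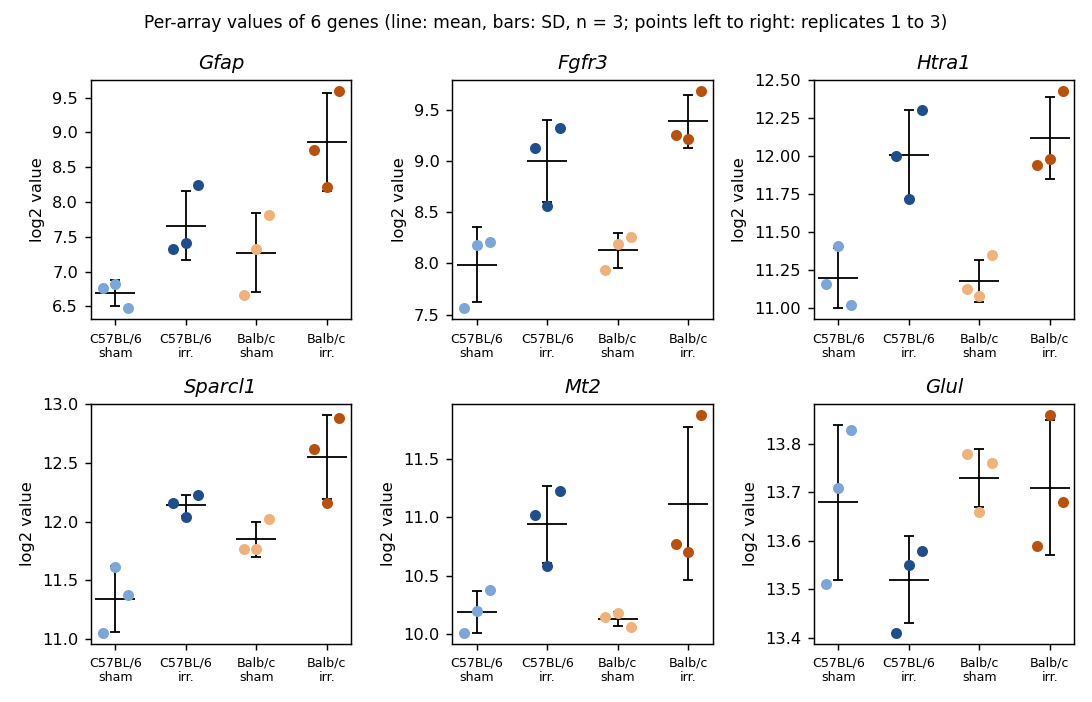
Log2 values of Gfap, Fgfr3, Htra1, Sparcl1, Mt2 and Glul (vertical axes, which do not start at 0) on each array of the 4 groups, with the mean (line) and SD (bars, n = 3), points in the order of replicates 1 to 3. Irradiated arrays lie above the sham arrays of their strain for the first 5 genes, and Glul overlaps in both strains.

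The genes moved together from mouse to mouse within a group. Among C57BL/6 irradiated arrays, replicate 3 was the highest of the 3 for 25 of 30 genes and replicate 2 the lowest for 24. Replicate 3 was the highest for 30.1% of all tested genes and replicate 2 the lowest for 28.2%. Among Balb/c irradiated arrays, replicate 3 was the highest for 27 genes and replicate 2, which had the largest 3' minus 5' difference, the lowest for 23, against 32.6% and 35.8% of all genes.

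Sham arrays showed the same joint movement. Replicate 1 of C57BL/6 sham was the lowest for 22 of 30 genes, against 33.8% of all genes, and replicate 3 of Balb/c sham was the highest for 25, against 34.1%. The mean log2 value over the 30 genes was 8.70, 9.28 and 9.06 in sham and 9.71, 9.41 and 10.07 in irradiated arrays of C57BL/6, and at 9.03, 9.10 and 9.45 in sham and 9.98, 9.62 and 10.45 in irradiated arrays of Balb/c. It did not overlap between sham and irradiated arrays of a strain, and the closest pair was Balb/c sham replicate 3 and Balb/c irradiated replicate 2.

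The defining genes and those with other sources were counted apart, and the difference between these groups was not tested. Of the 10 defining genes 5 were called higher on average and 0 lower, with a median of 0.87 and all 10 above 0. Of the 20 tested genes with other possible sources 14 were called higher and 0 lower, with a median of 0.77. A second list of 35 astrocyte genes, none of them among the 31, had 20 tested genes, of which 12 were called higher on average, 0 lower, with a median of 0.79 and 20 of 20 above 0. All 12 calls fell among the 15 genes of that list above 5 on all arrays. The lowest p-values were those of Scg3, a granin, at 0.83 ± 0.15 (adjusted p = 0.00551), Id4, an inhibitor of DNA binding, at 1.18 ± 0.22 (adjusted p = 0.00601), Ednrb, an endothelin receptor, at 0.81 ± 0.16 (adjusted p = 0.00737), and Timp4, a metalloproteinase inhibitor, at 0.81 ± 0.17 (adjusted p = 0.0122).

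Genes known from reactive astrocytes were read as a further list. Of 12 genes 7 were tested, and 5 were called higher on average, 0 lower, with a median of 1.38. Among the 6 genes of this list above 5 on all arrays, 4 were called higher. Cp, ceruloplasmin, rose by 1.34 ± 0.13 (adjusted p = 2.54e-04), Vim, the filament vimentin, by 1.38 ± 0.16 (adjusted p = 4.37e-04), the chemokine gene Cxcl10 by 2.54 ± 0.30 (adjusted p = 5.92e-04) and Cd44, an adhesion receptor, by 1.86 ± 0.23 (adjusted p = 7.92e-04). Cd44 and Vim are also on the monocyte list, and myeloid cells make Cxcl10. Lcn2, Serpina3n, Steap4, Timp1 and Aspg, of the same list, did not pass the filter.

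Markers of other cells moved beside the astrocyte genes in part. Of the endothelial and pericyte markers 9 were tested, Pecam1 and Cdh5 did not pass the filter, and 5 were called higher on average, 0 lower. Among the 8 markers above 5 on all arrays, 4 were called higher. Pdgfrb, Vtn, Slco1a4 and Rgs5 were among those called. The endothelial genes Cldn5, Flt1, Kdr and Tek were tested and not called, and Kdr lay below 0, at -0.12. The mean of the tested endothelial and pericyte markers ran from 7.98 to 8.41 in sham and 8.45 to 9.18 in irradiated arrays of C57BL/6, and 8.10 to 8.89 in sham and 9.09 to 9.65 in irradiated arrays of Balb/c. The array with the highest mean of this list also had the highest astrocyte mean in 3 groups: C57BL/6 sham replicate 2, Balb/c sham replicate 3 and Balb/c irradiated replicate 3. In C57BL/6 irradiated arrays the mean of this list was highest in replicate 2, which had the lowest astrocyte mean.

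Of the 10 border-associated macrophage markers, all tested, 7 were called higher on average and 0 lower, and their mean ran from 9.54 to 10.68 in sham and 10.65 to 10.96 in irradiated arrays of C57BL/6, and 9.19 to 9.39 in sham and 9.80 to 10.36 in irradiated arrays of Balb/c. Of 8 tested monocyte markers 6 were called higher and 0 lower, with means from 6.65 to 7.90 in sham and 8.12 to 8.99 in irradiated arrays of C57BL/6, and from 6.76 to 7.18 and 7.62 to 8.44 in those of Balb/c. The part of these cells in the astrocyte result was not tested.

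Of the other neural lists 1 gene was called. Of 10 oligodendrocyte markers 0 were called in either direction on average by limma and 1 had an unadjusted p under 0.05, with a median of -0.10, and their means overlapped between sham and irradiated arrays in both strains. Of 8 tested neuronal markers 0 were called by limma and 1 had an unadjusted p under 0.05, with a median of 0.18, while Tubb3, Nefm, Gad2, Slc17a7 and Nrgn did not pass the filter. Of 3 tested oligodendrocyte progenitor markers 0 were called by limma and 0 had an unadjusted p under 0.05, and Olig2, Sox10, Gpr17 and Lhfpl3 did not pass the filter. Of the neural stem and immature neuronal genes 4 were tested and Sox2, a factor shared by stem cells and astrocytes, was the 1 called, higher by 1.18 ± 0.18 (adjusted p = 0.00198), while Nes, Dcx, Sox11, Eomes and Neurod1 were among the 8 that did not pass the filter.

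Of 16 tested microglial genes, 0 were called higher on average and 2 lower, which is 12.5% against 8.15% of all tested genes called lower. The 2 were Trem2, a lipid-sensing receptor, at -0.71 ± 0.14 (adjusted p = 0.00889), and Siglech, at -0.38 ± 0.09 (adjusted p = 0.0184). The median over the 16 genes was -0.06. Their mean was lower without overlap in Balb/c irradiated arrays, at 13.56 to 13.74 against 13.76 to 13.77 in sham, and overlapped in C57BL/6. When each array was centred on the mean of these genes, every average difference shifted by 0.09 and 21 astrocyte genes were called higher, 0 lower.

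**Figure D4:**
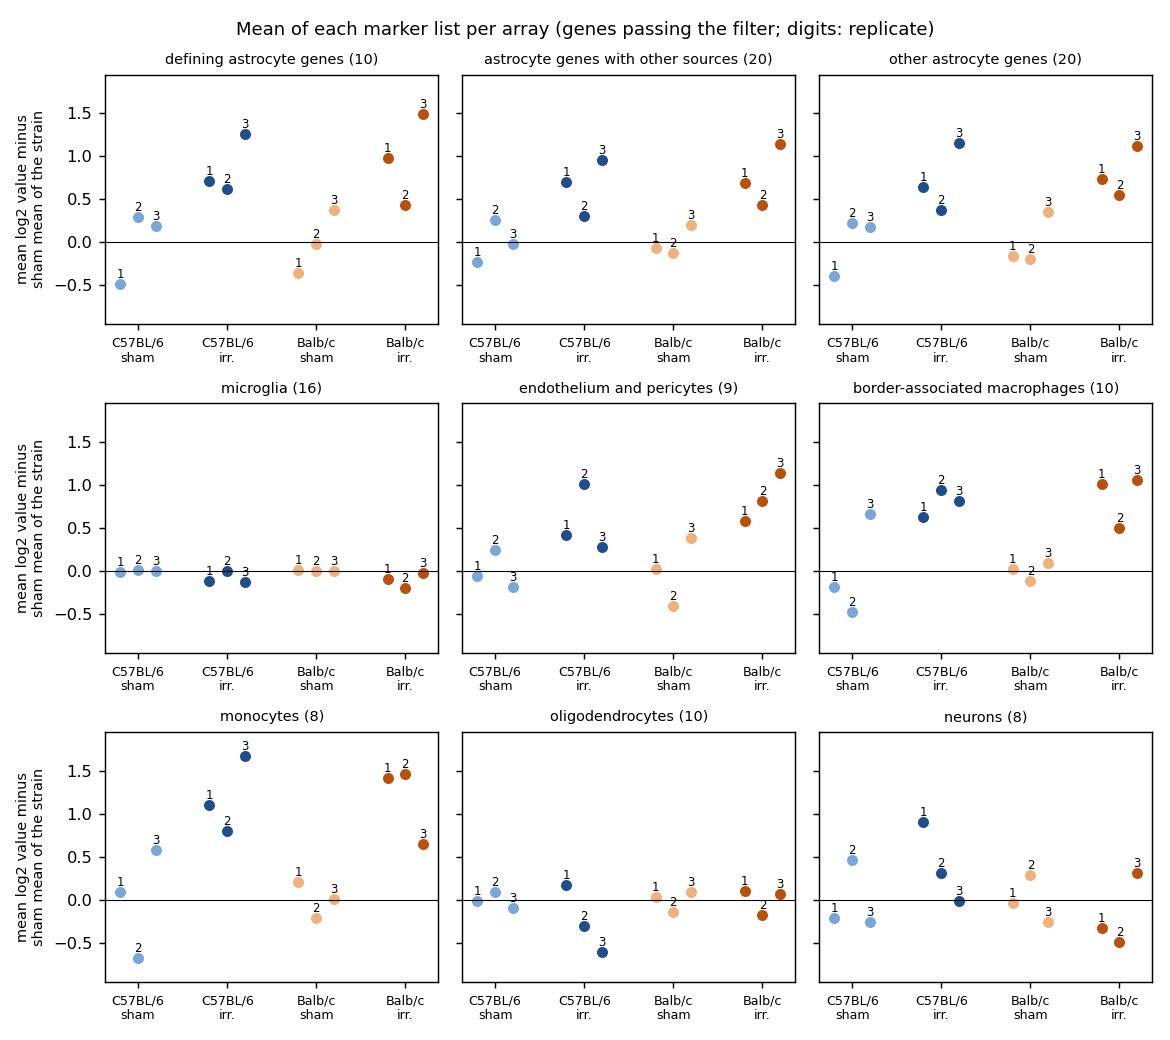
Mean log2 value of 9 marker lists per array (vertical axis), minus the mean of the 3 sham arrays of the same strain, for the 4 groups (horizontal axis; digits are replicate numbers, the number of tested genes is in each title). The 3 astrocyte lists lie above 0 on every irradiated array, and so do the monocyte, border-associated macrophage, and endothelial and pericyte lists. The microglial list stays near 0, slightly below it on the Balb/c irradiated arrays and on C57BL/6 irradiated replicates 1 and 3. The oligodendrocyte and neuronal lists overlap between sham and irradiated arrays.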

How the data were processed

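Each of the 12 arrays held RNA of CD11b+ cells from 1 mouse. The deposited table holds, for 45101 probe sets, log2 values that the authors normalized; the tool named in the submitters' processing notes is GCRMA, without its version. All arrays share 1 distribution. No scanner files were used here. The number of arrays limits the precision. Symbols came from the platform annotation (34945 probe sets with 1 symbol, 932 with several, not used), of which 34741 matched RefSeq through the Entrez identifier. Each gene took its probe set with the highest mean, and the filter was above 5 in at least 3 arrays. Values were fitted with lmFit and eBayes in limma 3.58.1 (R 4.3.3) with a mean for each of the 4 groups, which leaves 8 degrees of freedom, adjusted by Benjamini and Hochberg over 9120 genes. The fit was tested on simulated data. Arrays with the same replicate number had deviations correlated above 0.1 in all 3 pairs only between the irradiated groups (correlations 0.217, 0.447 and 0.323), so a fit with the number as a block is given beside that comparison. The block was set over all 12 arrays. All 31 astrocyte genes are given. From other lists at most 4 called genes with the smallest p are named, beside those that failed the filter and the endothelial genes that were not called. The genes and lists were chosen with earlier results of these data known. Alternatives are given at the end, and the 18S covariate was added after the data were seen.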

Additional observations from a re-analysis of the deposited data

How the results depend on the processing

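Each value is the number of astrocyte genes called. In C57BL/6 (3) it was 0 with no filter, 0 in a fit of the 6 arrays alone, 0 without both arrays that stood apart, 1 with the 3' minus 5' covariate and 1 with the 18S covariate, and 0 to 4 leaving out 1 array. In Balb/c (7) it was 0 with no filter, 4 with the mean of all probe sets, 11 with array weights, 3 in a fit of the compared arrays alone, 0 with the 3' minus 5' covariate and 0 with the 18S covariate, and 0 to 10 leaving out 1 array. On average (19) it was 8 with no filter, 12 with the 3' minus 5' covariate and 4 with the 18S covariate, and 11 to 22 leaving out 1 array. Leaving out 1 array, 1.24% to 3.85% of all genes were called in C57BL/6 and 2.39% to 6.49% in Balb/c. The share of all genes called on average was then 10.1% to 16.0%. The 18S signal does not overlap between sham and irradiated arrays, so its covariate and irradiation cannot be told apart. The interaction stayed at 0 in every fit run. Between sham strains (0) it was 1 when centred on microglial genes, 1 with the most variable probe set, and 0 to 1 leaving out 1 array. Between irradiated strains (0) it was 3 when centred on microglial genes, 1 with the mean of all probe sets, 2 with the most variable probe set, 1 with trend and robust, 1 with array weights, 2 without both arrays that stood apart and 1 with the 18S covariate, and 0 to 1 leaving out 1 array. Centring on microglial genes shifted every strain difference by 0.11 in sham and 0.13 in irradiated mice. The cause of these changes was not tested, save that more genes are tested with no filter and fewer arrays enter the smaller fits. In the average, Mt1 turned to -0.24 with its most variable probe set.

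With the replicate block the counts were 4 in C57BL/6, 9 in Balb/c, 22 on average, 0 for the interaction, 1 between sham and 2 between irradiated strains. The shares of all genes called were, in the same order, 4.14%, 6.36%, 15.3%, 0.0768%, 10.4% and 8.7%. Arrays with the same number had correlated deviations of -0.048 to 0.447 (median 0.10), and others of -0.391 to 0.203. The best match carried the same number in 20 of 36 comparisons of an array with another group, and for 3 of 12 arrays in every other group. Between the irradiated groups all 3 same-number correlations were above 0.2, and in no other pair of groups were all 3 above 0.1, so the labels' numbers may pair those groups and are not shown to pair the others. Under the block Ptprz1 lost its average call, and Plpp3 gained one between sham strains.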

Other observations

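A few genes of the second astrocyte list were called between the strains. Of its 20 tested genes 2 were called higher and 1 lower in Balb/c against C57BL/6 sham mice, where 10.5% of all genes were called in either direction (limma). Kcnj10, the potassium channel Kir4.1, lay above 5 on all 12 arrays and was higher in Balb/c by 0.84 ± 0.19 (log2 ± SE, adjusted p = 0.0156). S1pr1, a sphingosine phosphate receptor that endothelial cells make too, lay above 5 on 10 arrays and was lower by -1.14 ± 0.21 (adjusted p = 0.00518). In irradiated mice 4 were called higher and 2 lower in Balb/c, where 8.97% of all genes were called, and among them Kcnj10 was at 0.85 ± 0.19 (adjusted p = 0.017).

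Both counts include genes that passed the filter through 1 strain alone and so had to differ. The sham count was 15.0% of the list with Kcnj16 included, near the 10.5% of all genes. It is not read as a result about the list. Kcnj16, a potassium channel subunit, lay above 5 on 3 arrays, all Balb/c, and between 2.55 and 2.60 in C57BL/6 sham mice. Etnppl, an ethanolamine phosphate lyase, lay above 5 on 4 arrays, all C57BL/6. No difference is given for these 2 genes.

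Probe sets of 1 gene did not always move alike. The 31 genes had 75 probe sets, of which 22 beside those used passed the filter, and 20 of these 22 had the same sign of the average difference as the one used. The 2 that differed were those of Mt1 and Slc1a3, at -0.24 and -0.01. For Slc1a2 the other 2 kept probe sets gave 0.40 and 0.27 on average, and -0.25 and -0.02 in C57BL/6, against 0.71 there for the one used.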
